A study of Ictidomys tridecemlineatus with 15 samples.

Results

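The early progenitors of the developing retina of the 13-lined ground squirrel (13LGS, Ictidomys tridecemlineatus) were compared between the neurogenic type (Early_NG) and the primary type (Early_RPC). The members are the cells that the deposited annotation names Early_NG or Early_RPC in the 7 libraries of embryonic days E18, E21, E24 and E26. There were 10603 of them, 1762 Early_NG and 8841 Early_RPC, out of 19630 annotated cells in these libraries and 53394 cells in the whole matrix. The series followed whole retinas from E18 to the postnatal weeks by droplet-based single-cell RNA sequencing, in which each captured transcript carries a unique molecular identifier (UMI) and is counted once. The embryonic retinas were from timed-pregnant captive dams, and the labels name no treatment or genotype. There was 1 library from E18 and 2 each from E21, E24 and E26. The libraries of one day are called a and b here after the suffix of their cell names. Whether they came from separate animals was not stated in the sources used here, so the p-values below measure only the spread between these samples.

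Primary retinal progenitor cells are multipotent and cycling, and renew themselves while the retina grows. Neurogenic progenitors arise from them, express proneural transcription factors, and are close to leaving the cell cycle. In the embryonic retina they give rise to the early-born neurons, among them ganglion cells, horizontal cells and cone photoreceptors. Later progenitors give rise to further amacrine and bipolar cells, rods and Müller glia. For this species the study reports that late neurogenic progenitors generate cones as well. Early_NG and Early_RPC cells were both present in every embryonic library, so the comparison could be made within each library.

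The deposited matrix has 34181 gene rows and the accompanying list has 30265 gene names without row numbers, so no name could be paired with a row. Genes are therefore given by their row in the matrix, counted from 1, with at most 2 rows named in each direction of a comparison, and neither known marker genes nor functional gene groups could be looked up. The study named its cell types from marker genes in the same cells. The genes that set the annotation are thus among those found to differ between the types, and the calls of the direct comparison describe how large and how even over the libraries the differences were, not whether 2 types exist. Across the 7 libraries 56 of 19573 cell barcodes occurred in more than 1 library, and so did 20 of 10583 barcodes of the early progenitors. No doublet caller was run, and doublet removal before deposit was not stated in the sources used here. Cells with more than 2 times the median UMI count of their library and type, called high-UMI cells, made up 12.9% of the members, 195 Early_NG and 1175 Early_RPC. They held 60.9% of the Early_NG UMIs of library E26a, where the largest single cell held 295040 UMIs, or 7.26% of the summed counts. Results that these cells or this library moved are given with and without them.

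Each cell was placed beside the mean profiles of 5 embryonic types (Early_RPC, Early_NG, ganglion cells, horizontal cells and photoreceptor precursors). The profiles were built from the other 6 libraries over all gene rows tested, and the type with the highest correlation was recorded. The profiles are means over labels that were themselves made from expression in this matrix. The shares thus describe how alike the types were and do not test the labels, and the profiles were not matched for age. Of the Early_RPC cells, 95.4% were nearest to the Early_RPC profile and 4.52% to Early_NG. Of the Early_NG cells, 77.6% were nearest to Early_NG, 15.3% to Early_RPC, 5.22% to photoreceptor precursors, 1.59% to horizontal cells and 0.227% to ganglion cells. Fewer Early_NG cells were nearest to their own profile at the later ages, and the cause was not tested. The share of Early_NG cells nearest to their own profile was 97.9% at E18, 85.4% and 90.5% at E21, 70.8% and 74.0% at E24, and 58.4% and 53.2% at E26. The share nearest to Early_RPC was 0.413% at E18 and 25.2% and 40.3% at E26. Among high-UMI Early_NG cells 49.2% were nearest to Early_RPC, against 11.1% of the other Early_NG cells. Without the high-UMI cells the share nearest to Early_RPC was 0.426% at E18 and 19.1% and 32.7% at E26.

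**Figure D1:**
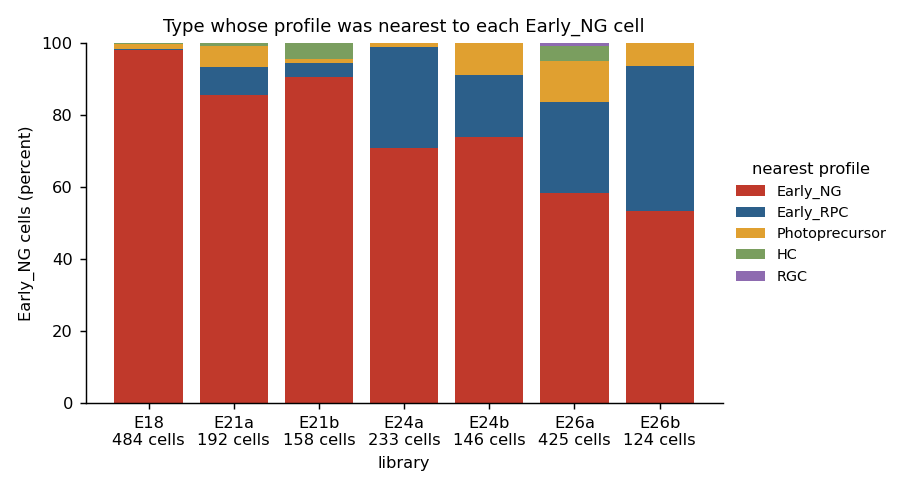
Share of Early_NG cells (percent, y axis) in each library (x axis, with the number of cells) by the type whose mean profile, built from the other libraries, had the highest correlation with the cell. The red part, cells nearest to Early_NG, covers 97.9% of the bar at E18 and 53.2% in E26b, and the blue part, cells nearest to Early_RPC, is largest in E26b at 40.3%.

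Neurogenic cells were the minority of early progenitors in every library. Their share of Early_NG and Early_RPC cells together was 11.1% at E18 (484 of 4376 cells, 95% Wilson interval 10.2 to 12.02%), 18.1% and 19.6% at E21, 17.1% and 19.1% at E24, and 29.5% (27.2 to 31.9%) and 15.7% (13.3 to 18.4%) in the libraries of E26. The share was lowest at E18, but the 2 libraries of E26 lay further apart than any pair of libraries of E21 and E24, and the lower of them fell below all libraries of those days. The mean was 18.6% ± 5.58 (SD, n = 7). The intervals cover counting error only. The relation of the share to embryonic day did not pass the test, with Pearson's r = 0.60 (exact two-sided permutation p = 0.144, n = 7) and Spearman's rho = 0.31 (exact p = 0.502). E18 and, tied at the next distance, the 2 libraries of E21 lay farthest from the median day, and r was 0.26 without E18 and E21a and 0.36 without E18 and E21b.

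Neurogenic cells yielded fewer UMIs. The median UMI count per cell was lower in Early_NG than in Early_RPC in 6 of 7 libraries, at 5910 against 8020 at E18, 7234 against 10277 in E21a, 9684 against 12634 in E21b, 8529 against 10432 in E24b, 4656 against 5391 in E26a and 6479 against 8353 in E26b. Library E24a did not show the difference, with 6074 against 5999. The mean log2 difference was -0.31 ± 0.17 (SD, n = 7), a ratio of 0.806 (exact two-sided sign-flip permutation p = 0.03125, where the smallest possible p is 0.015625). Leaving out any 1 library other than E24a gave p = 0.0625, and the means over cells in place of medians gave p = 0.125 (exact permutation tests). Fewer transcripts per cell and a lower capture of them cannot be told apart.

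At equal depth no difference in the number of detected genes passed the test. Thinned to 3000 UMIs, which left out 136 Early_NG and 305 Early_RPC cells with fewer, the median number of genes per cell ranged from 1398 (E24a) to 1546 (E21a) in Early_NG and from 1401 (E24a) to 1529 (E21a) in Early_RPC. The mean difference was -3.43 ± 18.3 genes (SD, n = 7, exact sign-flip permutation p = 0.625), higher in 2 and lower in 5 libraries. Before thinning the mean difference was -467 genes (exact p = 0.03125).

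For the comparison of gene expression, UMI counts were summed per library and type. The Early_NG sums held 1211584 (E26b) to 4064987 (E26a) UMIs and the Early_RPC sums 7427493 (E26a) to 37304721 (E18). Of 34181 rows, 13640 passed the filter on low counts. Levels are in CPM, which is UMIs of the row per 1000000 UMIs of the sum after edgeR's TMM normalization, and a called row is one with a Benjamini-Hochberg adjusted p below 0.05 over all rows tested in edgeR's quasi-likelihood test with the library as a block.

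The expression differences between the progenitor types were broad and mostly small. Of the 13640 rows, 4101 (30.1%) were called, 1967 (14.4%) higher and 2134 (15.6%) lower in Early_NG. The median size of the called differences was 0.47 on the log2 scale for the higher rows and 0.67 for the lower rows, and the median difference over all rows tested was -0.0017. At least 2-fold differences were called for 396 rows (2.9% of those tested) that were higher and 566 (4.15%) that were lower. The same direction in all 7 libraries was seen for 3085 of the 13640 rows tested. Among them were 1275 of the 1967 rows called higher and 1508 of the 2134 called lower. The 7 Early_NG values and the 7 Early_RPC values did not overlap for 767 (5.62%) of the rows tested. Of these 767 rows, 354 were called higher and 412 lower. Calls, direction and overlap were read from the same values, so these counts do not test the calls. Without the high-UMI cells 4823 of 12285 rows were called, with 374 at least 2-fold higher and 760 lower, and without library E26a 4510 were called, with 401 and 718.

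Calls were found at every level of expression. Among rows with a mean below 10 CPM 20.1% were called, among those from 10 to 100 CPM 34.4%, from 100 to 1000 CPM 44.4%, and at 1000 CPM or more 21.3% (26 of 122). The 2-fold differences sat among the lower levels, and of the 122 most abundant rows 1 was at least 2-fold higher and 0 were at least 2-fold lower. In terms of transcripts, all rows called higher took 21.5% ± 1.14 of the UMIs of Early_NG and 15.9% ± 0.504 of Early_RPC (SD, n = 7), and all rows called lower took 11.5% ± 0.685 and 16.1% ± 0.352. These rows were chosen by their values in the same libraries, so the shares describe the size of the difference and do not test it.

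**Figure D2:**
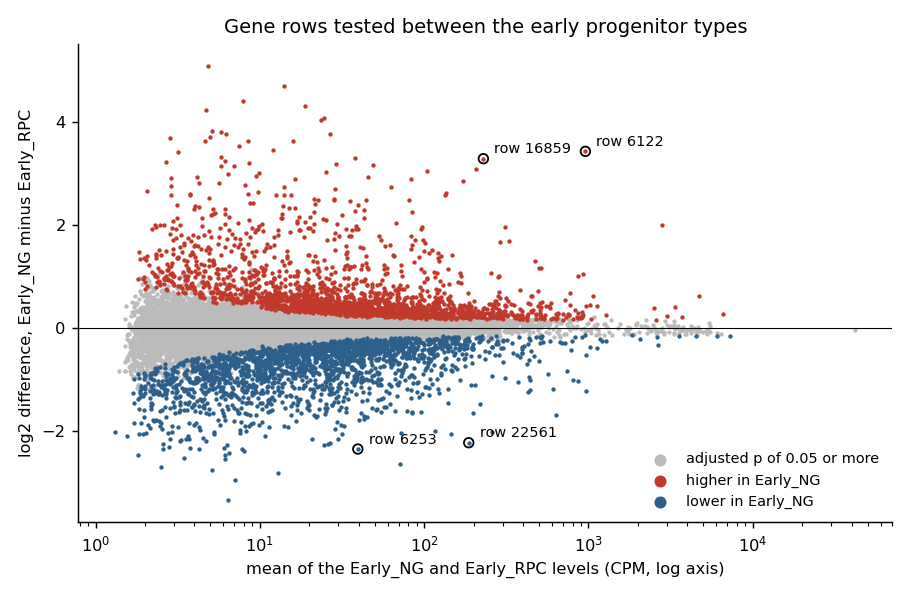
Log2 difference between Early_NG and Early_RPC (y axis) against the mean level of the 2 types (x axis, CPM, log axis) for the 13640 gene rows tested. Red points are the 1967 rows called higher and blue points the 2134 called lower in Early_NG, grey points were not called, and circles mark the 4 named rows.

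The named rows were those with the largest coefficients among the called rows with at least 50 CPM in the higher type, the same direction in every library and no overlap between the library values of the types, a rule that 278 rows met (154 higher, 124 lower). That the types do not overlap in the rows below was therefore set by the choice. Row 6122 had the largest difference. Its level in Early_NG was 2153 CPM at E18, 2825 and 2826 at E21, 1207 and 1519 at E24, and 1123 and 681 at E26. In Early_RPC of the same libraries it was 95.7 CPM at E18, 200.3 and 176.7 at E21, 172.3 and 166.0 at E24, and 148.0 and 109.3 at E26. The libraries of E21 were the highest in both types, and the ratio within a library fell from 22.5 at E18 to 6.23 in E26b. The log2 difference was 3.42 (SE 0.19, edgeR adjusted p = 4.67e-08).

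Row 16859 was higher in Early_NG too, but its primary level was not constant. Early_NG held 279 CPM at E18, 400.4 and 512 at E21, 459 and 381 at E24, and 488 and 332 at E26. Early_RPC held 6.96 CPM at E18, 41.9 and 23.9 at E21, 71.6 and 47.7 at E24, and 101 and 66.6 at E26. The ratio was 40.1 at E18 and 4.84 in E26a, with a log2 difference of 3.28 (SE 0.30, edgeR adjusted p = 2.12e-06). Its level in ganglion cells was 495 ± 116 CPM beside 402 ± 86.0 CPM in Early_NG (SD, n = 7, both as plain CPM without TMM).

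Rows 6253 and 22561 were higher in Early_RPC than in Early_NG. Row 6253 ranged from 42.9 to 97.5 CPM in Early_RPC, with a median of 56.8, and from 8.40 to 19.7 CPM in Early_NG, with a median of 10.96. The ratio of primary over neurogenic ran from 2.95 in E26a to 9.78 at E18. The log2 difference was -2.36 (SE 0.17, edgeR adjusted p = 3.65e-07). Row 22561 ranged from 249 to 390 CPM in Early_RPC, with a median of 274, and from 12.9 (E21b) to 141 CPM (E26a) in Early_NG, with a median of 65.5. Its log2 difference was -2.24 (SE 0.25, edgeR adjusted p = 1.06e-05). Neither row was highest in Early_RPC over all types of the series. In Müller glia of 3 postnatal libraries, as plain CPM without TMM, row 6253 stood at 149 ± 115 CPM and row 22561 at 1876 ± 1199 CPM (SD, n = 3), against 67.0 ± 24.2 and 301 ± 54.8 CPM in Early_RPC (SD, n = 7). Row 22561 also stood at 595 CPM in the Late_RPC cells of 1 embryonic library. After birth it stood at 446 ± 273 CPM in Late_RPC of 3 libraries. In Late_NG of 4 postnatal libraries it stood at 592 ± 778 CPM, with a range of 88.8 to 1752 CPM. Each of the 4 named rows had its smallest ratio between the types in a library of E26.

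**Figure D3:**
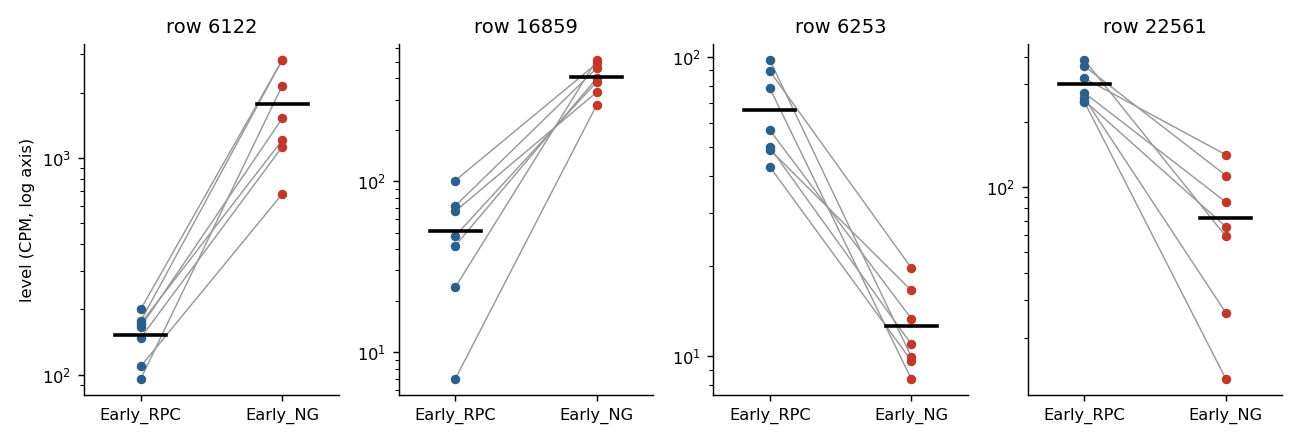
Levels (CPM, log axis) of the 4 named rows in Early_RPC (blue) and Early_NG (red), with 1 point per library, lines joining the values of a library and black bars for the means of 7 libraries. All lines of rows 6122 and 16859 rise from Early_RPC to Early_NG, all lines of rows 6253 and 22561 fall, and the types do not overlap in any of the 4.

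The named rows separated the types cell by cell only in part. In cells thinned to 3000 UMIs, row 6122 was detected in 62.1 to 95.5% of Early_NG and 15.7 to 24.4% of Early_RPC cells, with 15.3 to 33.5% of ganglion cells and 44.8 to 77.8% of horizontal cells. Row 16859 was detected in 35.5 to 48.0% of Early_NG, 1.59 to 13.1% of Early_RPC and 36.9 to 57.0% of ganglion cells. Row 6253 was detected in 12.4 to 24.5% of Early_RPC and 0.806 to 4.11% of Early_NG cells, and at most 0.735% of ganglion cells. Row 22561 was detected in 34.6 to 53.6% of Early_RPC and 3.18 to 21.02% of Early_NG cells, with 6.92 to 14.4% of ganglion cells. Without thinning, the ranges for Early_NG and Early_RPC were 73.4 to 97.5% and 31.4 to 54.2% for row 6122, and 5.37 to 11.6% and 23.8 to 55.3% for row 6253. The level of free RNA in the droplets was not measured, and a share at or below that of a type lacking the gene is background rather than expression.

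Rows chosen in 6 libraries separated the cells of the 7th. In each turn, 50 rows were taken in each direction from a fit without 1 library, and their summed share of each cell's UMIs was read in the library left out. For the higher rows the median share per library was 1.32% ± 0.329 in Early_NG and 0.191% ± 0.0597 in Early_RPC (SD of the medians, n = 7), and at least 99.1% of the Early_NG cells of a library lay above its Early_RPC median. The other embryonic types were high as well, with 1.16% ± 0.420 in ganglion cells, 0.921% ± 0.278 in horizontal cells and 1.15% ± 0.238 in photoreceptor precursors (n = 5). For the lower rows the medians were 0.215% ± 0.101 in Early_NG and 0.764% ± 0.110 in Early_RPC. They were 0.117% ± 0.00849 in ganglion cells, 0.149% ± 0.129 in horizontal cells and 0.114% ± 0.0255 in photoreceptor precursors (n = 5). Horizontal cells lay above Early_NG in E24a (0.332% against 0.322%) and E26a (0.344% against 0.271%), and below it in every other library. The rows were chosen anew for each library, and this order depended on their number. With 25 rows horizontal cells lay below Early_NG in every library (E24a 0.0167% against 0.101%, E26a 0.0198% against 0.0513%). With 100 rows they lay above it only in E24b (0.538% against 0.519%). The annotation of the library left out was itself made from expression, so this is a description of how evenly the rows carried over, with no test.

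The 2-fold rows were further placed among the 5 embryonic types, in the 5 libraries with at least 20 cells of each. Of the 396 higher rows, 71 (17.9%) had their highest mean level in Early_NG, 136 (34.3%) in ganglion cells, 109 (27.5%) in photoreceptor precursors and 80 (20.2%) in horizontal cells. A row that is higher in Early_NG can hardly peak in Early_RPC, so the background is the 10572 tested rows that did not peak there, of which 16.96% peaked in Early_NG, 35.01% in ganglion cells, 29.2% in precursors and 18.8% in horizontal cells. The shares of the 2-fold higher rows were close to this background. Of all 1967 rows called higher, 519 (26.4%) peaked in Early_NG. Of the 566 lower rows, 426 (75.3%) peaked in Early_RPC, against 22.5% of all rows tested. None of the lower rows peaked in Early_NG. The lower rows were chosen as higher in Early_RPC than in Early_NG in these same libraries. The choice thus fixes in part both the share that peaked in Early_RPC and the absence of peaks in Early_NG. The 22.5% is therefore not a matched background.

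Lists of 50 rows each were next taken from ganglion cells, horizontal cells and photoreceptor precursors compared with each other, without using progenitor cells. Few of their rows had enough counts in the progenitors to be tested, 17, 24 and 24 of 50, and a row could pass the filter through the type in which it was higher. Of those tested, 10 ganglion cell rows were called higher and 1 lower, 8 horizontal cell rows higher and 7 lower, and 11 precursor rows higher and 4 lower, beside the 14.4% and 15.6% of all rows tested. Since most rows could not be tested, the share of UMIs on all 50 rows of each list is given instead, with no test.

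Ganglion cell rows took a larger share in Early_NG in 7 of 7 libraries, with 0.0389% against 0.00780% of UMIs at E18, 0.0391% against 0.0147% and 0.0318% against 0.0115% at E21, 0.0340% against 0.0225% and 0.0237% against 0.0163% at E24, and 0.128% against 0.0196% and 0.0182% against 0.0151% at E26. The ratio ran from 1.21 in E26b to 6.53 in E26a. In E26a the single cell of 295040 UMIs held 23.7% of the UMIs on these rows, and without the high-UMI cells that library gave 0.0303% against 0.0236%. Early_NG was then still the higher in 7 of 7 libraries, at 0.0321% ± 0.00868 against 0.0172% ± 0.00552 (SD, n = 7). In ganglion cells themselves the rows took 1.00% ± 0.163, so Early_NG with all its cells held 1.62 to 6.03% of that level in 6 libraries and 12.04% in E26a. With 100 rows in the list the mean ratio of Early_NG over Early_RPC was 1.497, against 2.52 with 50, and Early_NG was the higher in 6 of 7 libraries.

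Photoreceptor precursor rows were also higher in Early_NG in 7 of 7 libraries, at 0.0680% ± 0.0192 against 0.0469% ± 0.0137 (SD, n = 7), with a ratio between 1.32 (E26b) and 1.58 (E21a). Horizontal cell rows went the other way in their summed share. They took 0.111% ± 0.0458 in Early_NG and 0.157% ± 0.0373 in Early_RPC, lower in Early_NG in 6 of 7 libraries and level in E26a (0.184% against 0.183%), and without the high-UMI cells lower in all 7 (E26a 0.120% against 0.193%). Of the horizontal cell rows tested, 8 were called higher and 7 lower, and with 25 rows in the list 7 and 2. The summed share thus does not describe the single rows. In their own types the precursor rows took 0.833% ± 0.280 (n = 5) and the horizontal cell rows 0.958% ± 0.165 (n = 7). The shares in the progenitors were a small part of these levels, and the part of free RNA and of doublets in them was not tested.

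In some rows the difference between the progenitor types changed with age, and in most of the rows called for this it became smaller. An interaction of type with embryonic day was called for 752 of 13640 rows (5.51%), with 405 (2.97%) rising and 347 (2.54%) falling per day in the log2 difference of Early_NG minus Early_RPC, and 509 of them were also called in the comparison over all ages. Of the 752 rows, 694 (92.3%) had a smaller difference at E26 than at E18, the median size going from 1.43 to 0.42 on the log2 scale of CPM plus a pseudocount of 1, and 289 had opposite signs at these 2 ages. The same share over all rows tested is not given here. The 962 rows with at least 2-fold differences were chosen in these same libraries. The median size of their differences, in their own direction, was 1.62 at E18, and 1.53 and 1.67 at E21. It was 0.96 and 1.18 at E24, and 0.95 and 0.86 at E26. The libraries of E18 and E21 thus lay above all those of E24 and E26. Without the high-UMI cells 309 rows were called, 114 rising and 195 falling, of which 267 (86.4%) were smaller at E26, and 257 were among the 752. Without library E18 426 were called, 290 rising and 136 falling, and without E26a 600, 244 and 356.

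Among the 325 called rows with at least 50 CPM in the higher group, row 25839 had the steepest falling difference. Its Early_NG level was 273 CPM at E18, 55.0 and 53.7 at E21, 21.9 and 12.1 at E24, and 13.3 and 9.66 at E26, while Early_RPC stayed between 4.59 and 15.4 CPM. Early_NG was the higher in 7 of 7 libraries, and the ratio fell from 17.7 at E18 to 1.68 and 1.75 at E26. The change in the log2 difference was -0.44 per day (SE 0.035, edgeR adjusted p = 2.43e-08). Row 25726 fell in Early_NG from 151 CPM at E18 and 177 and 130 at E21 to 47.0 and 43.5 at E26, and rose in Early_RPC from 22.5 to 45.4 and 46.9 CPM. Its ratio was 6.72 at E18 and 1.03 and 0.927 at E26, a change of -0.37 per day (SE 0.033, edgeR adjusted p = 9.57e-08).

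In rows 9607 and 7868 the difference closed from the primary side. Row 9607 stood at 635 CPM in Early_RPC at E18, 111 and 68.4 at E21, 11.8 and 21.8 at E24, and 11.9 and 11.5 at E26, and in Early_NG it went from 59.4 CPM at E18 to 8.29 and 7.25 at E26. The ratio of primary over neurogenic was 10.7 at E18 and 1.43 and 1.59 at E26, with a change of 0.37 per day (SE 0.038, edgeR adjusted p = 5.41e-07). Row 7868 fell in Early_RPC from 169 CPM at E18 to 7.76 and 10.4 at E26 and in Early_NG from 38.8 to 16.6 and 12.9. It was lower in Early_NG in the 5 libraries of E18 to E24 and higher in both of E26, a change of 0.34 per day (SE 0.039, edgeR adjusted p = 2.63e-06).

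**Figure D4:**
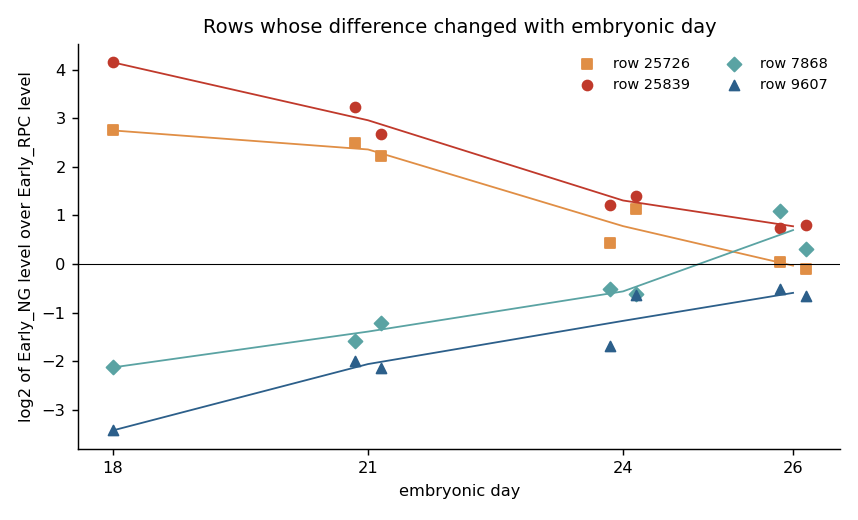
Log2 ratio of the Early_NG over the Early_RPC level (y axis) against embryonic day (x axis) for the 4 rows named for their change with age, with 1 point per library and lines through the means of each day. Rows 25839 and 25726 start at ratios of 17.7 and 6.72 and rows 9607 and 7868 at log2 ratios below 0, and all 4 lie nearer to 0 at E26 than at E18.

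Over the same ages the share of Early_NG cells nearest to the Early_RPC profile went from 0.413% to 25.2 and 40.3%, and the share of Early_NG UMIs held by high-UMI cells from 6.89% at E18 to 60.9 and 46.5% at E26. The part of either in the narrowing was not tested. Without the high-UMI cells the 396 higher rows, chosen in these same libraries, took 5.11 times as large a share of UMIs in Early_NG as in Early_RPC at E18. The ratios were 5.24 and 4.81 at E21, 2.76 and 3.42 at E24, and 3.12 and 2.60 at E26. With all cells these ratios were 5.16 at E18, 4.35 and 4.35 at E21, 2.26 and 2.83 at E24, and 2.47 and 2.07 at E26.

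After birth the study named a late pair of progenitor types, Late_NG and Late_RPC, in cells of other libraries. In the 3 libraries of P4 and P8 used here, 1 from P4 and 2 from P8, there were 715 Late_NG and 1756 Late_RPC cells, and the sums were shallower, 84310 to 2632201 UMIs. Taken as sets, the rows with 2-fold differences in the embryo took unequal shares after birth as well. The 396 higher rows took 2.57% ± 0.208 of the UMIs of Late_NG and 1.36% ± 0.127 of Late_RPC (SD, n = 3), with ratios of 1.56 to 2.13 and no overlap. The 566 lower rows took 1.08% ± 0.226 and 2.40% ± 0.105, with ratios of primary over neurogenic of 1.72 to 2.81 and no overlap. The share on the higher rows in primary cells was larger in each postnatal library (1.27 to 1.505%) than in each embryonic one (0.577 to 0.949%). These shares cover all rows of both sets and are given with no test. Singly, most of the rows had too few counts after birth to be tested. Of the 166 higher rows tested, 96 were called higher in Late_NG and 2 lower. Of the 174 lower rows tested, 110 were called lower and 1 higher. Over all 7073 rows tested after birth, 4.37% were called higher and 5.22% lower. A row could pass the filter on low counts through the type in which it was higher, so these counts lean towards the embryonic direction.

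**Figure D5:**
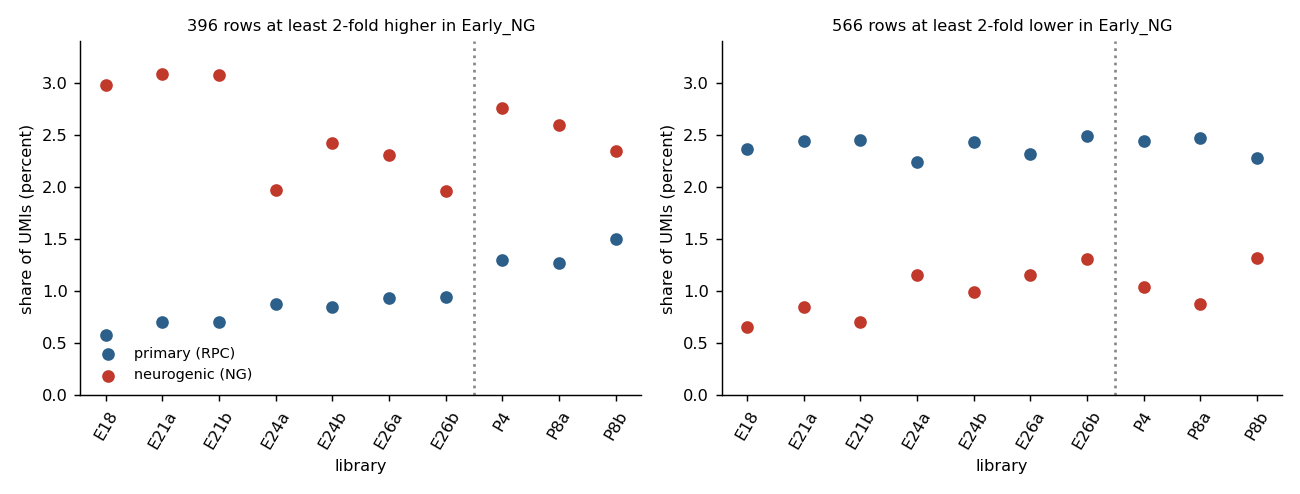
Share of UMIs (percent) in neurogenic (red) and primary (blue) cells of each library on the 396 rows at least 2-fold higher (left) and the 566 rows at least 2-fold lower (right) in Early_NG, with the embryonic libraries, which chose the rows, left of the dotted line and the postnatal libraries right of it. Red lies above blue on the left and below it on the right in all 7 embryonic and all 3 postnatal libraries.

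Row by row, Late_NG against Late_RPC gave 678 calls among 7073 rows tested (9.59%), 309 (4.37%) higher and 369 (5.22%) lower. Over the 7036 rows tested at both stages, 2599 (36.9%) were called in the embryo and 661 (9.39%) after birth. Both calls were made for 520 rows, which was 20.01% of the embryonic and 78.7% of the postnatal calls. The direction was the same for 501 of them, 208 higher and 293 lower in the neurogenic type, and opposite for 19. Of the 661 postnatal calls, 600 (90.8%) had the embryonic direction, against 67.4% of all 7036 rows tested at both stages. The log2 differences of the stages had r = 0.65 over these rows, which are not independent replicates. The embryonic and postnatal libraries shared no sample, but the cells of both were annotated in 1 matrix.

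With the 3 postnatal libraries used here, the interaction of type with stage was called for 69 of 12908 rows (0.535%), 40 (0.31%) with a higher and 29 (0.225%) with a lower late difference. It depended on single libraries and on high-UMI cells, with 18 calls without P4, 11 without P8a and 162 without E26a, and 208 without the high-UMI cells. Without the library block 6 rows were called. A fit that included the libraries of P12, which are not analysed here, called more rows, so the count depends on which libraries were used. The stage is confounded with age and with the annotation of the types as early or late, and these cannot be told apart.

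Row 24417 passed the interaction test under every alternative run. It was low in the embryonic progenitors, 4.52 to 23.9 CPM in Early_NG and 17.2 to 27.2 CPM in Early_RPC, and higher in Early_NG only in E26a. After birth it stood at 198, 292 and 147 CPM in Late_NG against 59.4, 43.8 and 37.9 CPM in Late_RPC of P4, P8a and P8b. Late_NG was the higher in 3 of 3 libraries without overlap, and the late difference exceeded the early one by a log2 of 2.91 (SE 0.38, edgeR adjusted p = 0.000613). Row 24417 was not highest in Late_NG over all types of the series. As plain CPM without TMM it stood at 1151 ± 730 in postnatal cones (SD, n = 3), against 195 ± 47.6 in postnatal Late_NG (n = 4). In embryonic photoreceptor precursors it stood at 138 ± 67.4 CPM (n = 5). Row 32841 was near 0 in the embryonic progenitors, 0 to 2.45 CPM in Early_NG and 0.663 to 1.98 CPM in Early_RPC. In Late_NG it stood at 38.3, 95.6 and 55.3 CPM, against 3.54, 3.65 and 18.9 CPM in Late_RPC, the latter resting on 15 UMIs in all. The difference between the stages was 3.59 (SE 0.67, edgeR adjusted p = 0.0121), and the adjusted p was 0.115 without P4, 0.236 without P8a and 0.0999 without the library block. Row 32841 was highest in bipolar cells, with 190 ± 17.8 CPM against 70.2 ± 23.7 CPM in postnatal Late_NG (SD, n = 4 each, plain CPM without TMM).

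Rows 25726 and 4972 had a lower late difference. Row 25726, whose embryonic difference had closed by E26, was lower in Late_NG in 3 of 3 libraries, with 49.9, 103 and 36.9 CPM against 131, 318 and 82.02 CPM in Late_RPC. The late difference was below the early one by a log2 of -2.90 (SE 0.62, edgeR adjusted p = 0.0364), and the call was lost without E21b, E24b, P4, P8a or P8b, with edgeR adjusted p-values of 0.0595 to 0.37, and without the library block (0.111). Row 4972 was higher in Early_NG in 7 of 7 libraries, with 346 to 666 CPM against 46.3 to 230.1 CPM. After birth its values were 331 against 328 CPM in P4, 152 against 474 CPM in P8a and 230.4 against 114 CPM in P8b, so the libraries did not share a direction. The difference between the stages was -2.47 (SE 0.50, edgeR adjusted p = 0.0247), and its adjusted p was 0.115 without P4, 0.386 without P8a, 0.0613 with equal UMIs per sum and 0.173 without the library block, and 0.0905 with DESeq2.

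The rows named for the embryonic comparison kept their direction after birth. The late log2 difference was 1.92 for row 6122 (SE 0.19, edgeR adjusted p = 1.56e-06), 2.41 for row 16859 (SE 0.31, edgeR adjusted p = 2.92e-05), -2.71 for row 6253 (SE 0.62, edgeR adjusted p = 0.00646) and -1.31 for row 22561 (SE 0.19, edgeR adjusted p = 0.000122). Their differences between the stages did not pass the test, at -1.52 (SE 0.40), -0.86 (SE 0.88), -0.38 (SE 0.84) and 0.90 (SE 0.46), errors too wide to show that the stages were alike.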

How the data were processed

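Whole 13LGS retinas were profiled in single-cell libraries. Per the study's methods, the authors aligned and counted reads with Cell Ranger 3.1.0 on the squirrel's HiC_Itri_2 assembly, combined the libraries in 1 matrix and annotated clusters with Seurat 4.0.4. Cell filters, doublet removal and any equalising of depth: not given in the sources used here. Raw UMI counts, not normalized, fill the deposited matrix. The deposited cell table gives time point, type and a suffix, and the library was taken as time point plus suffix, since suffixes do not match replicate numbers. P1 holds 2 suffixes for 1 labelled sample, so its 6920 cells were not analysed here. The labels list P12 as samples of their own, but the rule used here compares names without punctuation, and the cell table's P12 then also matches the label P1_2 of a P1 sample. The 8221 cells of P12 (2 suffixes) were therefore left out. The stage comparison was planned with P12 and rests on 3 postnatal libraries, and with P12 more rows were called.

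Counts were summed per library and type (at least 10 cells) and tested with edgeR 4.0.16 in R 4.3.3 (glmQLFit, glmQLFTest, filterByExpr, TMM, Benjamini-Hochberg adjustment, threshold 0.05). The library was a block, since both types of a pair came from the same library. Age entered as embryonic day and stage as embryonic or postnatal, each in an interaction with type. Alternatives were DESeq2 1.42.0, no filter, no block, each library left out, no high-UMI cells, equal cells and UMIs, early plus late annotations, 2 bins of age, other list sizes and thinning to 1500 UMIs. Dropping the high-UMI cells from the stage fit and the lists, and giving the lists as shares of UMIs over all rows instead of medians over tested rows, were chosen after seeing the data. Per-cell medians were compared by exact sign-flip permutation tests over libraries (NumPy 2.4.6, SciPy 1.17.1). The fits were tested on simulated data, where the age and stage fits called fewer of the planted changes than the fit of the early types did. The changes planted for the age fit were set per day and so differed in size from those of the other fits. The stage fit fell short of the first pass mark for the share called, and the mark was lowered after this was seen. Its count of calls may thus miss rows that differ.

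The named rows were the 2 in each direction with the largest coefficient among called rows with at least 50 CPM in the higher group, and for the early types also with the same direction in every library and no overlap, 4 rows in each comparison. Lists took 50 rows with at least 20 CPM in their own type and a mean log2 difference of at least 1 from the higher of the other 2 types. The members and lists were chosen with earlier results of these data known. Sums of 84310 to 37304721 UMIs set the precision.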

Additional observations from a re-analysis of the deposited data

Results flagged for a closer look

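Row 9607 in Early_RPC stood apart at E18, with 635 CPM against 11.5 to 111 CPM in the other 6 libraries. Row 25839 in Early_NG stood apart in the same library, with 273 CPM against 9.66 to 55.0 CPM. Both are rows named for their change with age, and E18 is the earliest day, with 1 library. An extreme value at E18 thus follows in part from the choice of these rows. The rate of about 1 in 20 groups expected of such values holds for replicates alike in age, which these libraries are not. It gives no background for the 2 of 32 groups that showed such a value here.

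The difference between neurogenic and primary progenitors itself differed between embryonic and postnatal libraries for 69 rows by the interaction test. The named ones were row 32841 (3.59 on the log2 scale, late minus early), row 24417 (2.91), row 25726 (-2.90) and row 4972 (-2.47), with edgeR adjusted p-values of 0.0121, 0.000613, 0.0364 and 0.0247. Rows 32841 and 24417 were higher in Late_NG in 3 of 3 libraries and row 25726 lower in 3 of 3, while row 4972 was higher in 2 and lower in 1.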

How the results depend on the processing

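All counts below are of rows with an adjusted p below 0.05, from edgeR unless another tool is named. Without the replicate block, which sets aside that both types came from the same library, 2308 rows were called between the early types, 151 for the age trend and 6 for the stage, against 4101, 752 and 69, and row 9607 lost its call (0.35 per day, edgeR adjusted p = 0.0816), as did rows 32841, 25726 and 4972 for the stage (0.0999, 0.111 and 0.173). DESeq2 called 414 rows for the age trend and 127 for the stage. Leaving out 1 library gave 3239 to 4510 calls between the early types, 426 to 841 for the age trend and 11 to 162 for the stage. Without high-UMI cells the age trend had 309 calls and the stage 208. The stage had 292 calls with no filter on low counts and 18 with equal UMIs per sum, where fewer rows were tested. The lower UMI count per cell gave -0.33 with means over cells (exact permutation p = 0.125), and -0.28 to -0.37 with 1 library left out. Detected genes per cell differed by 3.71 at 1500 UMIs, by -467 without thinning, and by -7.25 to 1.58 with 1 library left out, positive without E26a. Photoreceptor precursor rows had a log2 ratio of 0.54 with 50 rows, 1.02 with 25 rows and 0.83 without high-UMI cells. The difference in share on held-out rows was 1.13 percentage points for the higher and -0.55 for the lower rows with 50 rows, 0.474 and -0.27 with 25, and 1.83 and -1.01 with 100. The cause of these shifts was not tested. Of the 159 values of named rows under alternatives, 144 kept direction and call and 15 lost the call, 14 of them of rows named for the stage. Low counts kept most rows of the lists, and of the 2-fold rows after birth, from being tested.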
